A study of Homo sapiens with 12 samples.

Results

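Of the 12 Illumina bead arrays of the series, 6 carry RNA of BEAS-2B, a human bronchial epithelial line that was made immortal in culture. The titles number these arrays 1 or 2. The 3 arrays numbered 1 were set against the 3 numbered 2, matched by condition, so the members were chosen from titles and not from measured values. Both numbers hold 1 array of cells in medium alone (control), 1 of cells given 0.25% poultry dust extract for 1 h and 1 of cells given it for 6 h. The cells of every group had first been kept without serum overnight, and the labels give no time for the control arrays. The 6 arrays of A549, a lung adenocarcinoma line, fall into the same conditions and numbers and serve here as a comparison. The labels do not say whether a number marks a culture, a passage or a day, so a p-value measures the spread between these arrays, which may be technical, and each number may be a single culture.

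The arrays numbered 1 and 2 of BEAS-2B differed most in interferon-stimulated genes. All 45 measured genes of an antiviral list of this kind were higher on number 1, with a median difference of 2.86 on the log2 scale and 6.64 at most. The difference was present in untreated cells and in dust-treated cells. Lower on number 1 were S100A9, ACO1, AGR2, CCL2 and other genes with mixed roles. All levels are log2 of background-corrected, quantile-normalized intensity, all differences are number 1 minus number 2, and a feature passed at an adjusted p under 0.05 (limma, Benjamini-Hochberg over 20060 features).

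Type I interferons such as interferon beta are secreted by cells that sense foreign or misplaced nucleic acid. They bind a receptor of IFNAR1 and IFNAR2 chains, whose kinases JAK1 and TYK2 start a signal that reaches the nucleus with the help of IRF9. There the interferon-stimulated response element is bound, a DNA motif in front of many antiviral genes. Airway epithelium uses this pathway against respiratory viruses, and its cells can hold a low level of the same genes without infection.

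The promoters below belong to the 3 genes of the antiviral list with the largest passing differences among those with a promoter in the RefSeq table (GRCh38.p14), and they show the motif where it occurs. Each run gives the 250 bases before the annotated start, on the plus strand, with matches to the core of the element (GAAA, any 2 bases, GAAA) on either strand in capitals. IFI27 lies at chr14:94110486-94110735, IFI44L at chr1:78620198-78620447 and OAS1 at chr12:112906712-112906961.
IFI27: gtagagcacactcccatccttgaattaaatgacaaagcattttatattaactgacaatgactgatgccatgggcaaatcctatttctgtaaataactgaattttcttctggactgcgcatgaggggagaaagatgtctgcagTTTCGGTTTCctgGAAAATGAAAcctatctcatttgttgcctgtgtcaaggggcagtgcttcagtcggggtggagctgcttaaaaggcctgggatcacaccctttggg
IFI44L: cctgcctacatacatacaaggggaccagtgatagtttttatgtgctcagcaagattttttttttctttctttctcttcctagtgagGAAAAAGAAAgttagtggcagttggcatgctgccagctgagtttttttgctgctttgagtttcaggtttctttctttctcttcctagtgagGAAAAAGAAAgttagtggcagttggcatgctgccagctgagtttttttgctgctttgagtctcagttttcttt
OAS1: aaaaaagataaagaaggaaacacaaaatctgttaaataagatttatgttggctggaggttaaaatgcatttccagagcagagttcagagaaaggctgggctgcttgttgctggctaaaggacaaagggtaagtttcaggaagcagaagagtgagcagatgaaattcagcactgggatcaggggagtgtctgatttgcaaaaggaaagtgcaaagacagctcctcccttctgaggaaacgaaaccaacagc

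IFI27 held 2 matches that begin 108 and 95 bases before the start, the first of them on the minus strand. IFI44L held 2 matches of the same letters, 164 and 73 bases before the start. OAS1 held no match to this pattern in the window. Near the end of its run GAAA occurs 2 times with 1 base between, which the pattern does not count. Of the 36 measured genes of the antiviral list with a promoter in the table, 22 held at least 1 match (61.1%), against 265 of 10337 promoters of all measured genes (2.56%). Outside that list, the motif was in 41 of 688 promoters of genes that were higher on number 1 (5.96%) and in 20 of 183 of those at least 2-fold higher (10.9%). Among genes that were lower on number 1 it was in 13 of 976 promoters (1.33%). These shares describe letters in a window and not binding.

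Of the 20060 features, 2739 passed between the numbers (13.7%), of which 1152 were higher on number 1 (5.74%) and 1587 lower (7.91%). At least 2-fold differences were equally common both ways, with 371 higher and 362 lower among 733 that passed (3.65%). Large ones were not: of 34 features that passed and differed at least 8-fold, 33 were higher on number 1 and S100A9 was the only lower one. Of the 32 named genes at least 8-fold higher, 21 belong to the antiviral list. With arrays scaled only to one median, 3460 features passed and 18.2% of them were higher on number 1, against 42.1% of the 2739, and the median of all features lay at -0.14 instead of -0.02. The 3 condition-matched differences had the same sign for 2735 of the 2739 features. The features were selected by a test on these same differences, so this count gives no separate support.

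**Figure D1:**
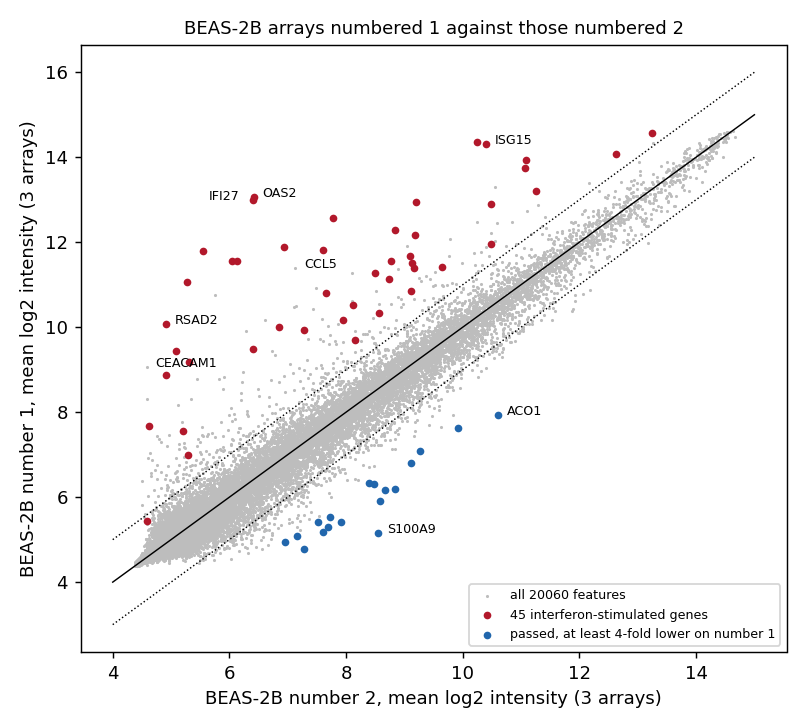
Mean log2 intensity of each of 20060 features on the 3 BEAS-2B arrays numbered 1 (vertical axis) and the 3 numbered 2 (horizontal axis). Red points are the 45 interferon-stimulated genes, blue points are features that passed and were at least 4-fold lower on number 1, the solid line marks equality and the dotted lines 2-fold. All red points lie above the line of equality.

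Across features, BEAS-2B arrays of 1 number in different conditions correlated at 0.978 to 0.985, and arrays of different numbers in the same condition at 0.965 to 0.972, so number separated the arrays more than the dust did. In A549 these ranges were 0.983 to 0.988 and 0.980 to 0.982. Between the A549 numbers 724 features passed (3.61%). The BEAS-2B and A549 differences themselves differed for 1884 features (9.39%), among them 1261 of the 2739 that passed in BEAS-2B. Only 181 features passed in both lines, and 82 of these had the same sign. No label ties a number in BEAS-2B to the same number in A549.

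The chip held number 1 of BEAS-2B at positions 7 to 9 and number 2 at positions 10 to 12, so position and number cannot be told apart. The arrays numbered 1 were dimmer before normalization, with a 95th percentile of signal of 790 to 930, against 1047 to 1103 on number 2. Between 17821 and 18530 probes were detected on number 1 and between 18177 and 18880 on number 2. The part of brightness in the differences was not tested.

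Cell identity was checked with marker lists and with CDH1 and EPCAM of the epithelial junction and identity list. Of 24 measured genes of that list, 5 were lower on number 1 and 2 higher, as given below. The epithelial genes CDH1 and EPCAM were at 10.40, 10.78 and 11.46 and at 10.59, 10.38 and 10.66 on number 1, against 10.61, 11.30 and 11.44 and 10.85, 10.95 and 10.98 on number 2, and neither passed. Of 11 basal markers 8 were measured. KRT5 (0.81) and KRT14 were higher on number 1 and DLK2 (-0.88) was lower, with another DLK2 probe at 0.29. None of the 8 endothelial markers was measured, and the leukocyte markers PTPRC, CD3E, TYROBP and FCER1G were not above background. Of the 7 leukocyte markers that were measured, LCP1 (1.07) and LYZ (0.72) were higher on number 1, and CD14 (-1.62) and CD68 (-0.76) were lower. The other CD68 probes went the opposite way, at 1.2 and 0.22. LYZ and CD68 lost their calls without both control arrays. The summed linear level of the 7 leukocyte markers was 1227 to 1279 on number 1 and 1575 to 2052 on number 2. Of 16 measured markers of A549 and alveolar cells, 10 were detected on none of the arrays of number 1 and 9 on none of number 2. Only AGR2 and ALDH3A1 passed (12.5%, against 13.7% of all features), both lower on number 1. The list summed to 840 to 961 on number 1 and 1066 to 1371 on number 2. None of 4 measured ciliated and secretory markers and none of 6 fibroblast markers passed, with sums of 118 to 130 and 275 to 309 on number 1, against 122 to 137 and 285 to 346 on number 2.

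OAS2 and OAS1 make oligoadenylates, the messenger that switches on RNase L. OAS2, which had the largest difference of the list, was at 13.40, 13.46 and 12.31 (control, 1 h and 6 h) on number 1, against 6.35, 6.78 and 6.11 on number 2. The lowest value on number 1 lay far above the highest on number 2, and the difference was 6.64 ± 0.18 (SE, 3 arrays each, limma adjusted p = 3.8e-08), or 99.8-fold, by the brightest of 4 probes. The other OAS2 probes gave 4.81, 3.58 and 3.09. OAS1 was at 11.91, 11.99 and 10.79 on number 1 and at 5.97, 6.16 and 6.26 on number 2, a difference of 5.43 ± 0.25, with other probes at 6.28 and 5.29. OASL, a relative without the enzyme activity, was at 11.81, 12.01 and 10.85 on number 1 and at 6.30, 6.29 and 5.57 on number 2, a difference of 5.51 ± 0.15, with another probe at 4.85. In all 3 genes the 6 h array was the lowest of number 1. OAS2 and OASL were below background on all 6 A549 arrays, whereas OAS1 was at 8.85 to 10.81 there.

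IFI27, a small mitochondrial protein, was at 13.09, 13.37 and 12.49 on number 1, against 6.43, 6.50 and 6.26 on number 2 (difference 6.59 ± 0.16, 96.1-fold). IFI44L was at 12.17, 12.26 and 10.94 on number 1 and at 5.54, 6.12 and 5.0 on number 2, where 2 of 3 arrays detected it (difference 6.23 ± 0.16). Its relative IFI44 was at 12.09, 12.05 and 11.51 on number 1 and at 7.10, 6.94 and 6.75 on number 2 (difference 4.95 ± 0.14). A second probe for IFI44L gave a difference of 3.44, smaller and of the same sign.

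The dynamin-like GTPases MX1 and MX2 trap viral particles. MX2 was at 11.52, 11.43 and 10.27 on number 1 and at 5.46, 5.56 and 4.80 on number 2, where 2 of 3 arrays detected it (difference 5.80 ± 0.16). MX1 was at 14.48, 14.49 and 14.10 on number 1 and at 10.32, 10.56 and 9.87 on number 2, a smaller difference of 4.11 ± 0.44. MX1 thus had a clear level on number 2 as well, whereas MX2 was near background there.

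RSAD2 (viperin) makes a nucleotide that stops viral RNA synthesis, and CMPK2 is a nucleotide kinase encoded beside it. RSAD2 was at 10.60, 10.52 and 9.14 on number 1 and not well above background on any array of number 2 (4.87, 4.75 and 5.13), a difference of at least 28.5-fold. CMPK2 was at 8.41, 8.33 and 6.26 on number 1 and not detected on number 2 (4.65, 4.64 and 4.59), at least 5.32-fold. A bound of this kind sets the mean of the bright number against the dimmest detected probe of each array or the probe's own value, whichever is higher. USP18, a protease that strips ISG15 from proteins and damps the interferon receptor, was likewise detected on number 1 alone (9.18, 9.40 and 8.04, against 5.04, 5.16 and 4.55 on number 2, at least 12.3-fold higher).

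IFIT proteins bind foreign RNA. IFIT1 was at 12.95, 13.06 and 11.68 on number 1, against 7.58, 8.47 and 7.28 on number 2 (difference 4.79 ± 0.28, another probe 1.99). IFIT3 was at 12.50, 12.28 and 10.64, against 7.59, 7.70 and 7.5 (difference 4.21 ± 0.31, other probes 4.14 and 3.15). ISG15, a ubiquitin-like modifier, was at 14.36, 14.51 and 14.08 on number 1 and at 10.27, 10.60 and 10.32 on number 2 (difference 3.92 ± 0.24). The ISG15 ligase HERC5 differed by 2.98 and TRIM22, a ubiquitin ligase detected on 1 of 3 arrays of number 2, by 4.35. The membrane protein IFITM3, which blocks viral entry, was among the brightest of the list on both numbers (13.88 to 14.28 on number 1, 12.50 to 12.68 on number 2) and differed by 1.47 ± 0.15.

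**Figure D2:**
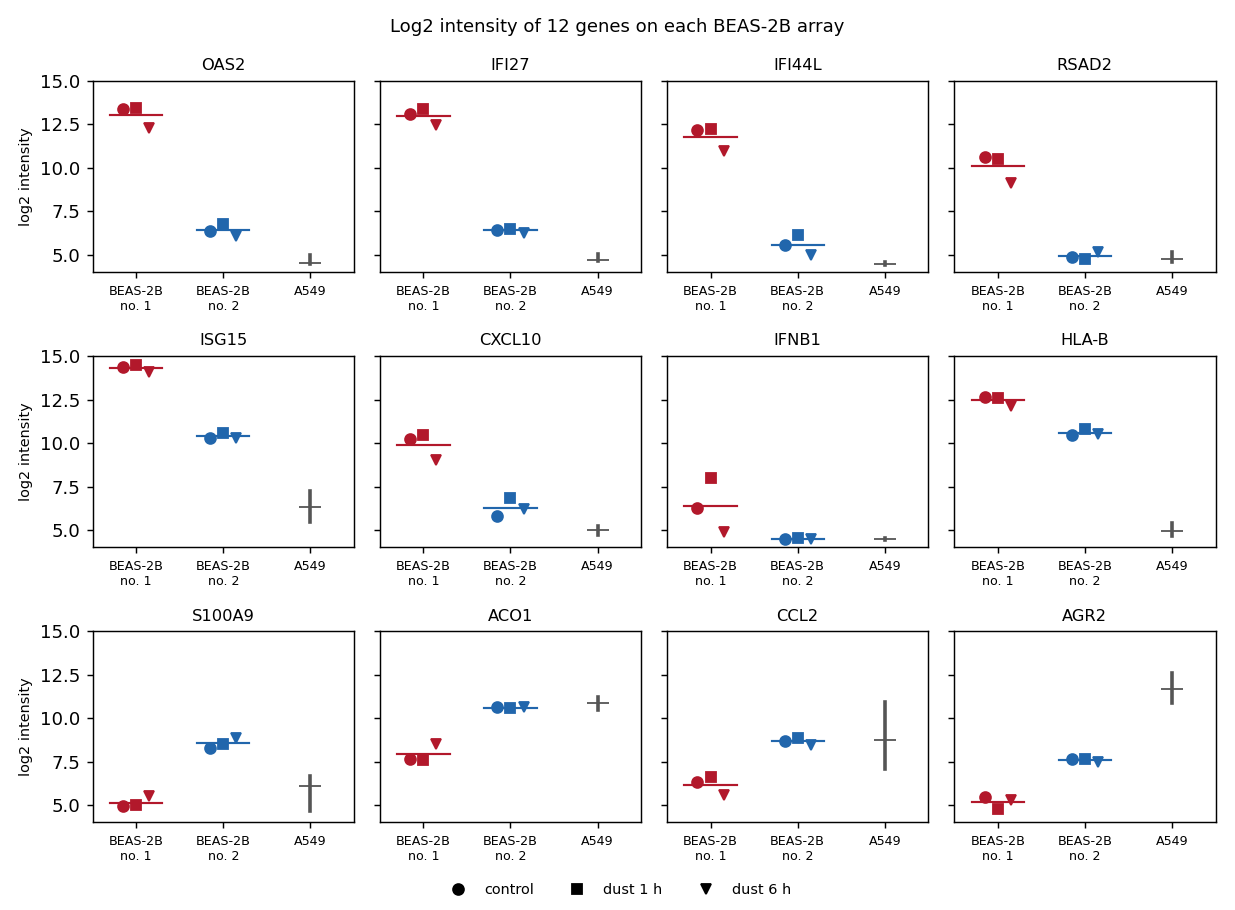
Log2 intensity of 12 genes on each BEAS-2B array, number 1 (red) left of number 2 (blue), with a marker for each condition and a bar at the mean of 3 arrays. The grey line spans the 6 A549 arrays with a tick at their median. OAS2 lies between 12.31 and 13.46 on number 1 and between 6.11 and 6.78 on number 2, and ACO1 at 7.61 to 8.53 on number 1 and 10.58 to 10.63 on number 2.

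Over the whole antiviral list the smallest differences were those of BATF2 (0.85), IFITM2 (1.33) and LY6E (1.46), and 35 of 45 genes were at least 4-fold higher. The 3 values on number 1 lay above the 3 on number 2 for all 45, where 26.9% of all features had numbers that did not overlap. In bulk RNA, more cells with these transcripts and more transcripts per cell cannot be told apart. The 35 genes detected on all 6 BEAS-2B arrays had a median of 2.77. In 23 alternative settings between 44 and 45 genes of the list kept their call, with BATF2 the only one lost, among others without both control arrays or both 1 h arrays of BEAS-2B.

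In A549 the median difference of the list was 0.20, and IFITM2, PARP9, LY6E and LGALS3BP were the only members that passed. The BEAS-2B difference exceeded the A549 difference, by the test of the difference itself, for 41 of 45 genes. Among all features 9.39% passed that test, in either direction. The other 4 genes of the list were IFITM2, LY6E, LGALS3BP and BATF2, and these genes and the A549 set were picked out after their values were seen. The mean on number 2 lay above the A549 median for 39 of the 45, and for 32 all 3 values on number 2 lay above all 6 A549 values. The lines differ, and the same counts were not made over all features, so these counts only describe the list.

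The list was lower after 6 h of dust extract on number 1. The median change from control was 0.07 at 1 h and -0.94 at 6 h on number 1, against 0.10 at 1 h and -0.16 at 6 h on number 2. At 6 h all 45 genes were below their control value on number 1, by 0.22 for IFITM3 and by 2.14 for CMPK2 at the extremes. On number 2, 29 of 45 were below control, and the 6 h change ran between -0.73 for OASL and 1.22 for ISG20. The change was lower on number 1 than on number 2 for 43 of 45 genes, compared with 47.9% of all features. Consequently the median difference between the numbers was 3.19 in control, 3.05 at 1 h and 2.34 at 6 h. Each of these changes rests on 1 array per condition and number, so none was tested.

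**Figure D3:**
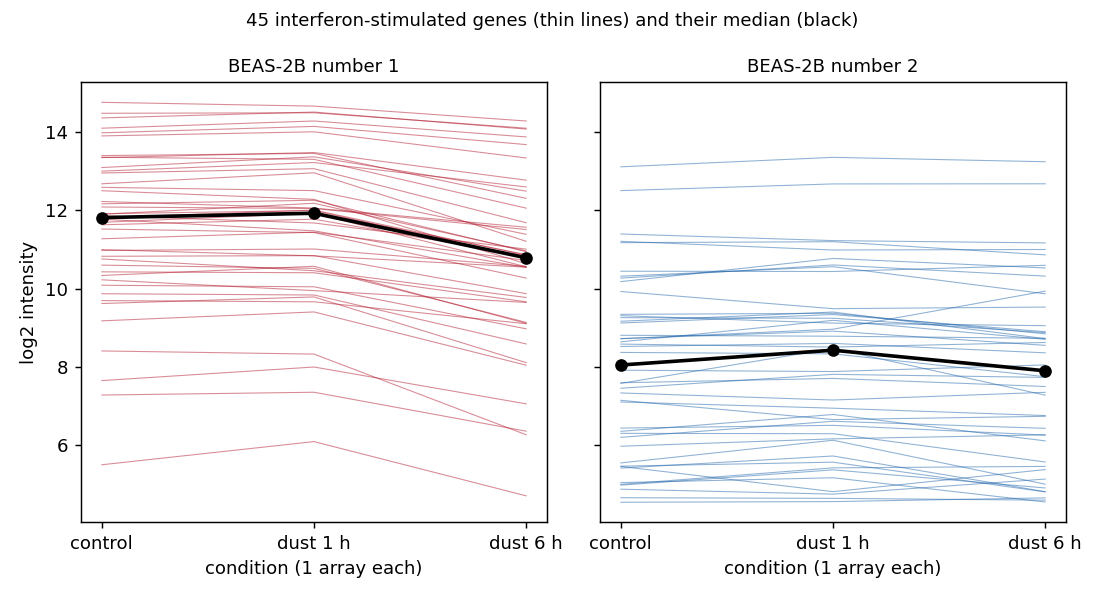
Log2 intensity of the 45 interferon-stimulated genes (thin lines) and their median (black) in control, dust 1 h and dust 6 h, with number 1 on the left and number 2 on the right. Each condition is 1 array per number. The 6 h array of number 1 lies below its control for all 45 genes, with a median change of -0.94, against -0.16 on number 2.

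Of 31 genes of interferon production and signalling 26 were measured, and 10 were higher on number 1 and 0 lower, with a list median of 0.31. Among all features 5.74% were higher and 7.91% lower. The cytosolic RNA sensors RIGI and IFIH1 were at 10.49, 10.50 and 9.51 and at 11.05, 11.50 and 10.22 on number 1, against 6.40, 6.65 and 6.77 and 7.78, 7.60 and 7.09 on number 2. Their differences were 3.56 ± 0.24 and 3.44 ± 0.17. The related helicase DHX58 differed by 2.12, and ZBP1, a sensor of Z-form nucleic acid that was not detected on number 2, was at least 4.65-fold higher. The transcription factors IRF7 and IRF9 differed by 2.30 ± 0.23 and 1.91 ± 0.16.

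Other members of the list did not pass. IFNAR1 (-0.31), IFNAR2 (-0.12), JAK1 (0.20) and TYK2 (-0.28) were among these, as were IRF3 (0.32), the adaptor MAVS (-0.19), the kinase TBK1 (-0.02) and the DNA sensor CGAS (0.23). Without both BEAS-2B control arrays, and likewise without both 1 h arrays, 6 genes of the list passed.

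IFNB1, the gene of interferon beta, was singled out after its values were seen. It was at 6.27, 8.01 and 4.90 on number 1 and at 4.50, 4.51 and 4.49 on number 2. The control and 1 h arrays of number 1 detected it and the other 4 BEAS-2B arrays and the 6 A549 arrays did not. The difference was at least 2.20-fold (1.89 ± 0.43, limma adjusted p = 0.018). It no longer passed without both control arrays (adjusted p = 0.067), without both 1 h arrays (0.054) or with BEAS-2B arrays alone (0.069), and the alternatives ran between 1.09 and 2.63. JAK2, TLR3 and SOCS1 also passed (1.02, 0.91 and 0.54), and each of these lost its call without both control arrays (adjusted p = 0.16, 0.059 and 0.066) and without both 1 h arrays (0.17, 0.051 and 0.15).

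HLA class I molecules show peptides to T cells, and interferon raises their genes in most cell types. Of 17 measured genes of this pathway, 12 were higher on number 1 and ERAP2, a peptide-trimming protease, was lower (-0.92), with another ERAP2 probe at 0.40. HLA-B was at 12.64, 12.57 and 12.16 on number 1 and at 10.46, 10.80 and 10.52 on number 2 (difference 1.86 ± 0.14). The peptide transporter subunit TAP1 was at 12.49, 12.56 and 11.61 on number 1 and at 10.59, 10.54 and 10.32 on number 2 (difference 1.74 ± 0.17). HLA-F (1.55), HLA-C (1.5), TAP2 (1.39), HLA-E (1.14) and the light chain B2M (0.87) were higher too. The list median was 0.83, and without both control arrays 8 genes were higher. For all features the shares were 5.74% higher and 7.91% lower.

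Of 7 measured interferon-type and lymphocyte chemokines, 3 were higher on number 1 and 1 lower, where 5.74% of all features were higher and 7.91% lower. CCL5, which attracts T cells and eosinophils, was at 11.37, 11.58 and 11.20 on number 1 and at 6.86, 7.42 and 7.11 on number 2 (difference 4.26 ± 0.26, another probe 3.49). CXCL10, a ligand of CXCR3 on activated T cells, was at 10.25, 10.44 and 9.02 on number 1 and at 5.83, 6.82 and 6.19 on number 2 (difference 3.63 ± 0.25). CXCL11, a second CXCR3 ligand, differed by 1.63 ± 0.18 and was detected on 1 array of number 2. The monocyte attractant CCL2 went the other way, with 6.36, 6.60 and 5.57 on number 1 and 8.68, 8.88 and 8.44 on number 2 (difference -2.49 ± 0.22).

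None of 7 neutrophil chemokines and CCL20 passed in BEAS-2B (list median 0.09), where 13.7% of all features passed. Among 15 measured cytokines, TNF was at 7.30, 8.57 and 7.12 on number 1 and at 4.80, 6.68 and 5.13 on number 2, where only the 1 h array detected it (difference 2.12 ± 0.24). The death receptor ligand TNFSF10 (1.68), IL11 (1.65) and IL32 (1.23) were also higher, and GDF15 (-0.97) and TGFB2 (-0.56) were lower. GDF15 lost its call without both 1 h or both 6 h arrays, IL32 when condition was left out of the model, and TGFB2 without any 1 of the 3 pairs of BEAS-2B arrays. IL6 was at 9.47, 10.55 and 9.0 on number 1 and at 7.66, 8.55 and 8.58 on number 2 and did not pass (difference 1.41 ± 0.51, adjusted p = 0.10).

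Some of the largest differences lay outside the antiviral list. SLC15A3, a lysosomal transporter of histidine and peptides, was at 11.08, 11.32 and 9.89 on number 1 and at 5.85, 5.93 and 5.46 on number 2 (difference 5.01 ± 0.18). CEACAM1, an adhesion molecule, was at 9.05, 9.29 and 8.85 on number 1 and not detected on number 2 (4.55, 4.67 and 4.53), at least 14-fold, with other probes at 3.03 and 0.92. CYP2J2, a P450 that makes epoxides of arachidonic acid, was at 8.59, 8.62 and 7.69 on number 1 and not detected on number 2 (4.54, 4.42 and 4.79), at least 8.26-fold. MMP9, a gelatinase, was at 10.44, 10.56 and 10.53 on number 1 and at 7.10, 6.49 and 7.81 on number 2 (difference 3.37 ± 0.22). WARS1, the tryptophan tRNA synthetase, was at 11.73, 12.14 and 11.85 on number 1 and at 8.87, 9.05 and 9.20 on number 2 (difference 2.86 ± 0.14). It was the only higher gene among 22 of the ATF4 and amino acid response, where 6 were lower, such as the serine synthesis enzyme PHGDH (-0.85). The count of lower genes there was 2 without both control or both 1 h arrays and 8 with arrays scaled to one median. In the main fit 7.91% of all features were lower.

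Detection alone split further genes. They were picked by detection on the same arrays, so the counts that passed describe them and give no separate support. Some, such as RSAD2, were detected only on the number where they were high. Of the named genes, 76 were detected on all 3 arrays of number 1 and none of number 2, and 54 of these passed. In the other direction 112 were detected on all 3 arrays of number 2 and none of number 1, and 81 passed. The largest of these was REEP1, which shapes the endoplasmic reticulum, at 4.83, 4.76 and 4.77 on number 1 and 7.39, 7.38 and 7.04 on number 2 (at least 3.99-fold lower). PARD6A, a cell polarity adaptor, was at least 3.67-fold lower by its brightest probe, but another probe gave a difference of only -0.28. GLDC, of the glycine cleavage system, was at least 3.19-fold lower. LHX2, a homeobox factor, was at least 2.45-fold lower, and PIERCE1, a protein of cilia, at least 2.61-fold.

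The gene with the largest lower value was S100A9, which pairs with S100A8 as calprotectin. S100A9 was at 4.93, 5.01 and 5.50 on number 1, where 1 array detected it, and at 8.31, 8.49 and 8.85 on number 2 (difference -3.40 ± 0.21, adjusted p = 1.6e-05). S100A8 was at 4.81, 5.36 and 5.0 on number 1 and at 6.48, 6.63 and 6.60 on number 2 (difference -1.52 ± 0.14). The acute phase proteins of epithelium moved the same way: LCN2 (-1.34), which binds bacterial iron carriers, SAA1 (-1.09) and SAA2, which was not detected on number 1 (at least 1.68-fold lower). The complement genes C1S (1.24), C1R (1.23) and CFB (0.88) and the protease inhibitor SERPINA1 (0.83) of the same list were higher on number 1, though CFB and SERPINA1 lost their calls without both control arrays.

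ACO1, the cytosolic aconitase that also regulates iron use, was at 7.66, 7.61 and 8.53 on number 1 and at 10.63, 10.58 and 10.62 on number 2 (difference -2.68 ± 0.19). The A549 arrays were at 10.46 to 11.25, close to number 2. MLXIPL, a glucose-responsive transcription factor, was at 6.13, 5.50 and 6.11 on number 1 and at 8.66, 8.89 and 8.21 on number 2 (difference -2.67 ± 0.22, another probe -1.65). LRRC26, a potassium channel subunit of secretory cells, differed by -2.66 ± 0.20, and RARRES2, the gene of chemerin, by -2.51 ± 0.13. SCD5, a stearoyl-CoA desaturase, differed by -2.10 ± 0.20.

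AGR2, a disulfide isomerase of mucus-making cells, was at 5.45, 4.80 and 5.27 on number 1 and at 7.68, 7.67 and 7.49 on number 2, while A549 arrays were at 10.90 to 12.58. Its difference was -2.44 ± 0.16, and a second probe gave -0.11. ALDH3A1, an aldehyde dehydrogenase, was at 5.70, 5.41 and 4.77 on number 1 and at 8.02, 7.85 and 7.21 on number 2 (difference -2.40 ± 0.12). SUSD2 (-2.31), a membrane protein, EEF1A2 (-2.30), a tissue-restricted elongation factor, and MYCN (-2.19), a growth transcription factor, were lower as well. So were AMOT (-2.18), a scaffold at cell junctions, and PEG10 (-2.18), an imprinted gene from a retrotransposon. For 8 of the 15 genes with the lowest differences, every A549 value lay above every value on number 1. These genes were picked for being low on number 1, and the share over all features was not counted.

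All 30 genes with the 15 highest and 15 lowest differences kept their calls in every alternative tried. By role, the 15 highest were 12 members of the antiviral list, SLC15A3, CEACAM1 and CCL5. Of the 15 lowest, RARRES2 and ALDH3A1 are in the retinoid and aryl hydrocarbon receptor list, and AGR2 and ALDH3A1 in the marker list of A549 and alveolar cells. The retinoid and aryl hydrocarbon receptor list had 3 higher and 6 lower of 15 measured, with PLAAT4 (2.61) and TGM2 (1.77) highest and CYP1A1, which was detected on 2 arrays of number 2 and none of number 1, at least 1.99-fold lower. CYP1A1 lost its call without both control or both 1 h arrays, and TGM2 when condition was left out. Other TGM2 probes gave 0.55 and 0.83. Over all features 5.74% were higher and 7.91% lower.

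**Figure D4:**
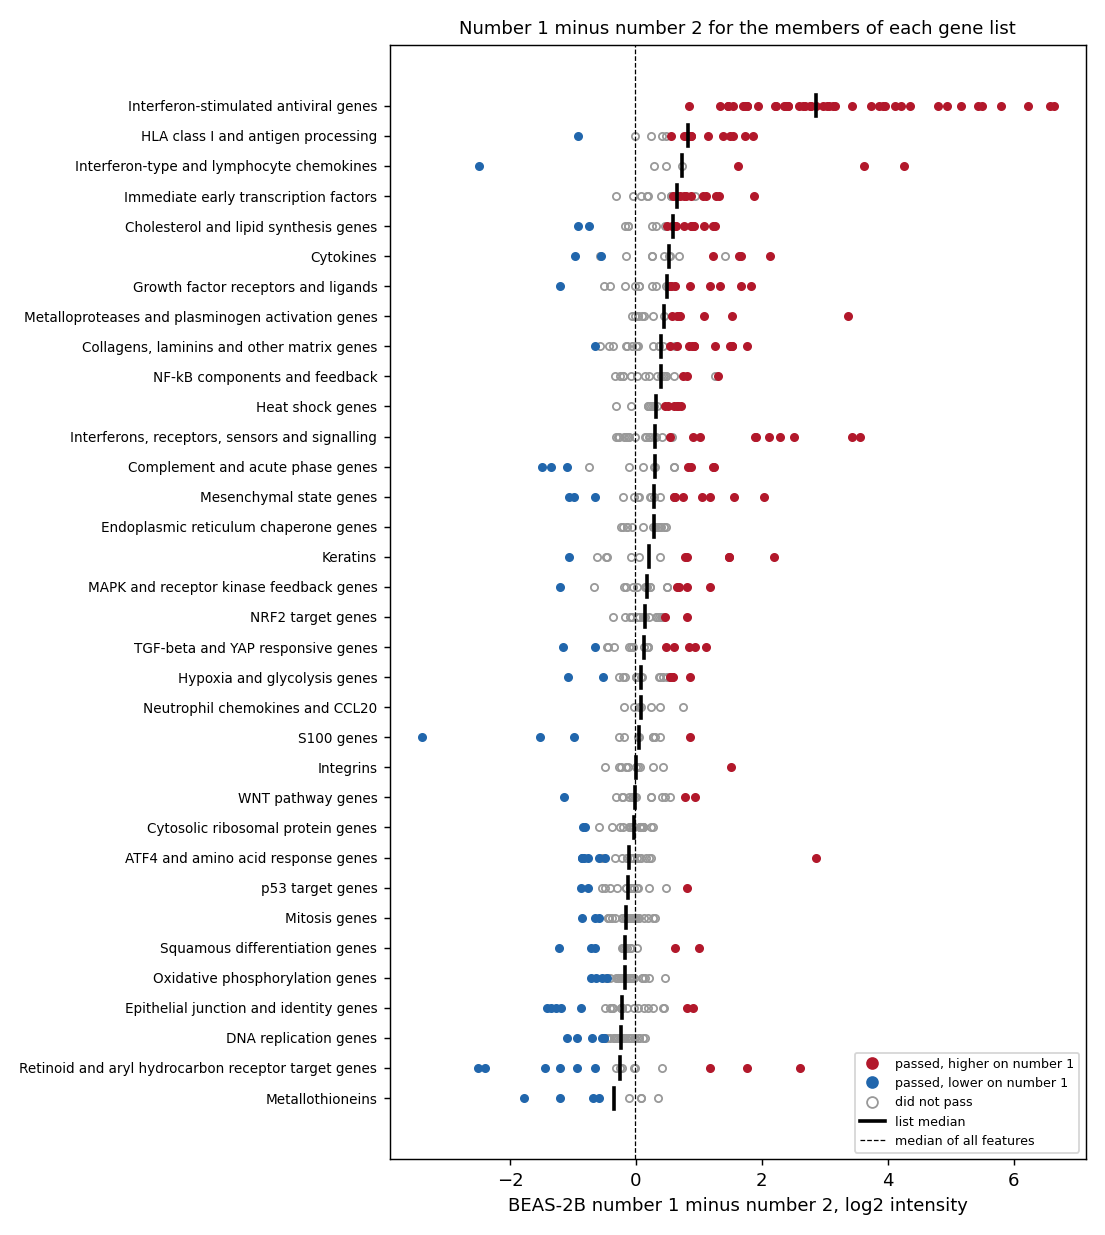
Number 1 minus number 2 in BEAS-2B (horizontal axis, log2 intensity) for each measured gene of 34 gene lists, one row a list, ordered by the list's median (black bar). Filled points passed (red higher, blue lower on number 1) and open points did not, and the dashed line is the median of all features. The antiviral list stands at 2.86, and the next list, HLA class I, at 0.83.

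Of 23 measured genes of cholesterol and lipid synthesis, 14 were higher on number 1 and 2 lower, with a median of 0.59. By comparison, 5.74% of all features were higher and 7.91% lower. HMGCS1, which makes the precursor of mevalonate, was at 13.29, 13.51 and 13.36 on number 1 and at 12.06, 12.24 and 12.17 on number 2 (difference 1.23 ± 0.14). MSMO1 (1.25), SC5D (1.09) and DHCR7 (0.93), enzymes of the later sterol steps, and the fatty acid synthase FASN (0.90) were higher. HSD17B7 (-0.92) and PMVK (-0.75) were lower, and lost their calls without both 6 h and without both 1 h arrays. With arrays scaled to one median 9 genes of the list were higher, and without both control arrays 8 were.

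Of 21 immediate early transcription factors, which respond to growth signals within minutes, 11 were higher on number 1 and 0 lower (median 0.66). The share of all features that were higher was 5.74%. KLF4 was at 8.93, 9.17 and 8.07 on number 1 and at 6.37, 7.30 and 6.87 on number 2 (difference 1.88 ± 0.27). ATF3 (1.33), EGR1 (1.28), FOSL1 (1.12) and JUN (1.07) were higher too, and 4 genes of the list passed without both control arrays, where ATF3 and JUN lost their calls. When condition was left out of the model 1 gene passed, and EGR1 and FOSL1 lost theirs too. With arrays scaled to one median 7 passed. Of 14 heat shock genes 6 were higher, by 0.46 to 0.71, and 0 passed with arrays scaled to one median or without both control arrays.

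Of 19 measured mesenchymal genes 7 were higher and 3 lower, where 5.74% of all features were higher and 7.91% lower. With arrays scaled to one median 4 were higher and 3 lower. SNAI2, a repressor of epithelial genes, was at 8.98, 8.98 and 8.27 on number 1 and at 7.06, 6.66 and 6.43 on number 2 (difference 2.03 ± 0.16). NT5E (1.56) and TWIST2 (1.17) were higher, and LOX (-1.07), S100A4 (-0.98) and ACTA2 (-0.66) were lower. Without both control or both 1 h arrays 4 were higher and 1 lower, and S100A4 and ACTA2 lost their calls. Of 26 matrix genes 11 were higher and 1, COL18A1 (-0.65), lower, led by LAMB3 (1.76), a chain of laminin in epithelial basement membrane, and COL5A1 (1.53). Another LAMB3 probe gave 0.78. Without both 1 h arrays 7 were higher, and COL18A1 lost its call without both control arrays.

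Of 24 epithelial junction and identity genes, 5 were lower on number 1 and 2 higher, where 7.91% of all features were lower and 5.74% higher. The lower ones were the transcription factors ELF3 (-1.41), OVOL2 (-1.35) and GRHL2, which was not detected on number 1 and was at least 1.91-fold lower, and the junction genes CGN (-1.26) and MARVELD3 (-0.88). ELF3 was at 7.15, 8.99 and 7.29 on number 1 and at 8.53, 10.42 and 8.70 on number 2. SFN (0.91) and DSP (0.81) were higher. Among 12 keratins, KRT14, the basal cell keratin, was at 7.04, 7.29 and 6.28 on number 1 and not detected on number 2 (4.54, 4.56 and 4.90), at least 3.06-fold. KRT16 and KRT34 (1.48 each), KRT5 and KRT7 (0.79) were higher and KRT19 (-1.05) was lower. Another KRT16 probe gave 0.15. OVOL2, KRT34 and KRT7 lost their calls without both control or both 1 h arrays, and DSP and MARVELD3 without both control arrays. With arrays scaled to one median, where DSP also lost its call, 1 epithelial gene was higher and 8 were lower.

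Of 20 measured growth factor receptors and ligands, 8 were higher and 1 lower, among them FGFBP1 (1.83), a carrier of fibroblast growth factors, BTC, an EGF receptor ligand not detected on number 2 (at least 2.26-fold), and ERBB3 (-1.20), the lower one. Without both control arrays 4 were higher. In the main fit 5.74% of all features were higher and 7.91% lower. The list of metallothioneins, which bind zinc and copper, also holds SLC30A1, which is not one of them. That list had 0 higher and 4 lower of 8 measured genes, led by MT1H (-1.78) and MT1F (-1.20). MT1E (-0.68) and MT1M (-0.58) also passed, and lost their calls without both 1 h arrays, MT1E also without both control arrays and MT1M without both 6 h arrays.

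Over all features 5.74% were higher and 7.91% lower, with a median of -0.02. Of 29 DNA replication genes 0 were higher and 6 lower (median -0.24), led by CCNE1 (-1.09) and RRM2 (-0.93), and between 2 and 11 were lower in the alternatives. Another CCNE1 probe gave 0.22. With arrays scaled to one median the list's median was -0.48, against -0.14 over all features. Of 29 mitosis genes CENPE (-0.85), MKI67 (-0.64) and CCNB2 (-0.59) were lower. Of 30 oxidative phosphorylation genes 4 were lower (median -0.18), and of 27 cytosolic ribosomal protein genes RPL5 (-0.85) and RPL23 (-0.81) were. MKI67, CCNB2 and RPL23 lost their calls without both control arrays, where 0 of the oxidative phosphorylation genes passed. None of 14 endoplasmic reticulum chaperone genes passed (median 0.28).

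The dust extract itself raised several genes on both numbers. FOSB was at 4.89, 11.35 and 5.37 on number 1 and at 5.97, 11.08 and 5.50 on number 2, and CXCL8 at 8.75, 11.62 and 9.81 on number 1 and at 7.49, 10.36 and 10.10 on number 2. Between the numbers FOSB differed by -0.31 and CXCL8 by 0.75, and neither passed. IL1B, an inflammatory cytokine, was at 8.25, 10.63 and 10.52 on number 1 and at 7.20, 10.62 and 10.25 on number 2 (difference 0.44). KRT23 was at 4.68, 6.17 and 7.84 on number 1 and at 5.19, 6.29 and 8.63 on number 2 (difference -0.47). Of a panel of 15 dust-responsive genes, EGR1 and ATF3 passed between the numbers, a share close to the 13.7% of all features. ATF3 lost its call without both control arrays, and EGR1 when condition was left out of the model. EGR1 was at 10.20, 11.86 and 10.95 on number 1 and at 8.87, 10.81 and 9.51 on number 2, so the control arrays differed as well, with 1 array on each side.

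Features with at least a 2-fold change from control were counted on each number. At 1 h, 276 features were up on number 1 and 243 on number 2, and 100 were up on both, which is 36.2% of the first set and 41.2% of the second. At 6 h, 231 were up on number 1 and 256 on number 2, and 62 were up on both (26.8% and 24.2%). Down at 1 h were 172 features on number 1 and 63 on number 2, with 4 shared (2.33% and 6.35%). Down at 6 h were 243 features on number 1 and 123 on number 2, with 18 shared (7.41% and 14.6%). With 1 array for each value these counts carry no error.

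Along the genome, 1 region stood out when the 13025 named genes with a known chromosome were cut into 323 blocks of 40 neighbours, a scheme chosen after the data were seen and given without a test. From the block that begins with CLDN3 to its end, chromosome 7 held 370 measured genes with a median difference of -0.23, and 76.2% of them were below 0, against 52.1% of all genes. Of these 370 genes 74 were lower on number 1 and 14 higher, where 7.91% of all features were lower and 5.74% higher. The start of the region was picked from these same block values, so its shares describe it and give no separate support. The region's median was -0.23 in control, -0.25 at 1 h and -0.25 at 6 h, and its 9 block medians ran between -0.37 and -0.11. The 240 genes of the chromosome before that block had a median of -0.003, with 20 lower and 14 higher.

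Of the 23 blocks below -0.15, 8 were among the 15 of chromosome 7, and the lowest of all ran from PON3 to TRAPPC14. In the deposited quantile-normalized matrix the region's median was -0.16. In A549 it was 0.06, and there all 18 blocks below -0.15 lay among the 21 blocks of chromosome 2.

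**Figure D5:**
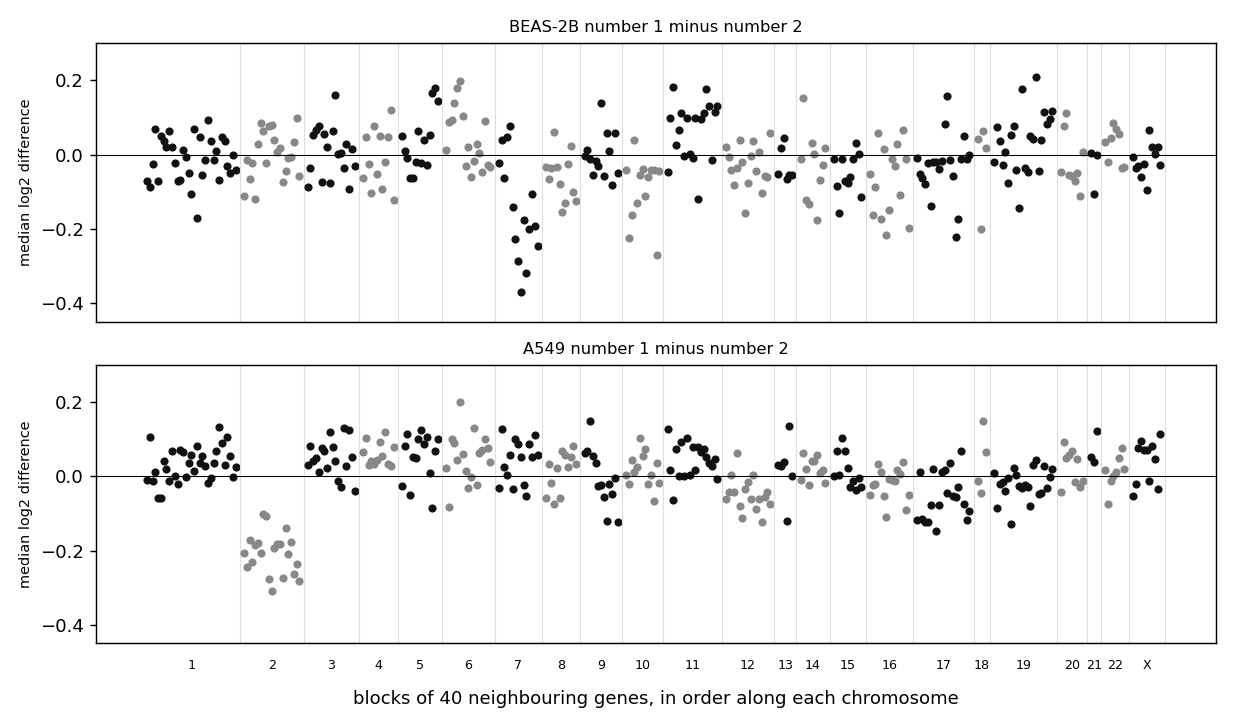
Median number 1 minus number 2 difference (vertical axis, log2 intensity) in blocks of 40 neighbouring genes, in order along chromosomes 1 to X, for BEAS-2B (upper) and A549 (lower). Black and grey alternate by chromosome. In BEAS-2B the lowest block is on chromosome 7 at -0.37, and in A549 the lowest is on chromosome 2 at -0.31.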

How the data were processed

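The authors deposited a table with a mean intensity, a detection p-value, a bead count and a bead standard error (a signal spread) per probe and array, not normalized, with GenomeStudio 2011.1 per the submitters' processing notes. A deposited matrix of linear intensity has nearly equal medians, equal maxima and the same ranks as the table. Bead counts and bead errors were used to describe the arrays only. No strand, build or probe filter is given in the sources used here.

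The intensity table was processed in R 4.3.3 with limma 3.58.1: neqc (normexp with negative controls inferred from the detection p-values, offset 16, quantile, log2). Probes with detection p under 0.05 on at least 2 of 12 arrays were kept, and the probe with the highest mean stood for a gene. Of 645 named genes that passed in BEAS-2B and had another kept probe, 119 had another probe of opposite sign. Of 47320 probes 30112 have 1 gene symbol, 8 several and 17200 none. This left 13035 named genes and 7025 unnamed probes. One linear model held a mean for each line and condition and a number effect within each line, with 4 residual and 5.67 prior degrees of freedom. All 12 arrays share each feature's variance, so a BEAS-2B standard error also draws on A549 arrays, where some genes were below background. The median standard error of a difference was 0.161, which the number of arrays limits. The procedure was tested on simulated data.

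The comparison and lists were chosen with earlier results of these data known. The genes named are the 15 highest and 15 lowest that passed with 1 sign in all 3 conditions, up to 6 passing members of each list, a panel of 15 dust-responsive genes, and 5 each way detected on 1 number only. Others are marked or are list members given to complete a count. Alternatives covered background correction, scaling, filters, probes, model and left-out arrays. Gene and promoter data are from RefSeq.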

Additional observations from a re-analysis of the deposited data

Results flagged for a closer look

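The 15 highest and 15 lowest genes were marked because the number 1 minus number 2 difference in BEAS-2B differed from that in A549 by the test of the difference itself (limma, adjusted p at most 0.022 over the 30 genes). The genes had been picked by their BEAS-2B differences, which also enter this test. That all 30 passed is therefore no separate support. The values are the BEAS-2B difference minus the A549 difference, on the log2 scale. No label ties the numbers of the lines to each other.

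In genes of the antiviral list the excess in BEAS-2B was 6.49 for IFI27, 6.44 for OAS2, 6.22 for IFI44L, 6.2 for OAS1, 5.83 for MX2 and 5.50 for OASL. It was 5.10 for IFI44, 4.98 for RSAD2, 4.13 for TRIM22, 3.69 for IFIT1, 3.32 for IFIT3 and 2.78 for MX1. Outside that list it was 5.08 for SLC15A3, 4.29 for CCL5 and 2.54 for CEACAM1. In A549 the OAS1 difference was -0.77 and did not pass, and CEACAM1 was higher on number 1 there as well (1.94).

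For the lower genes the difference between lines was largest for S100A9 (-4.76), CCL2 (-4.39) and AGR2 (-3.94), each of which was higher on number 1 in A549 (1.35, 1.90 and 1.51). It was -3.20 for ACO1, -3.16 for LRRC26, -3.16 for EEF1A2, -2.83 for SUSD2, -2.77 for REEP1, -2.68 for ALDH3A1, -2.62 for RARRES2 and -2.50 for SCD5. It was -2.18 for MLXIPL, -2.09 for MYCN, -2.06 for AMOT and -1.5 for PEG10.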

How the results depend on the processing

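No paired analysis was possible because the replicate number is itself what is compared, and condition already is the block. The alternatives were followed gene by gene only for genes picked for mention, largely by the size of their difference, and not for all 2128 named genes that passed. Of 212 such picked genes that passed, 119 passed in every one of up to 24 alternatives and 0 changed sign. Of the 2739 features that passed between the BEAS-2B numbers, 733 were also at least 2-fold apart. The count was 1665 with BEAS-2B arrays alone, 1193 without both control arrays and 1456 without both 1 h arrays. Leaving out 1 array, which removes its matched partner from the difference too, gave 1192 to 2493. The A549 count of 724 became 1310 with the deposited matrix, 1301 with normexp and offset 50 and 2001 with arrays scaled to one median, and 269 to 746 without 1 array. The difference between lines, 1884, became 2895, 2886 and 4984 in these 3 settings, 1094 without both BEAS-2B control arrays and 1227 without both 1 h arrays, and 927 to 1623 without 1 array. None of the picked genes that changed sign had passed. CXCL1 was at -0.0024 with one median and DUSP5 at 0.0324 with cyclic loess. Without 1 BEAS-2B array, CXCL1 ran between -0.0559 and 0.5609, DUSP5 between -0.2415 and 0.2943, FOSB between -0.6032 and 0.0651 and MALL between -0.6528 and 0.3215. With fewer arrays the spread is estimated from fewer values, and the cause of the other shifts was not tested.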
